A study of Mus musculus with 3 samples.

Results

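The regions described here are stretches of open chromatin at the starts of long non-coding RNA (lncRNA) genes in mouse epiblast-like cells. Peaks of the 3 samples were merged on chromosomes 1 to 19 other than 6, 8 and 11. A merged region was kept when it lay within 1 kb of a transcript start of gene type lincRNA or antisense and over 5 kb from every protein-coding start. This gave 2191 regions out of 144115 on the 16 chromosomes used and out of 219473 in the whole series. Of the 2191 regions, 1670 (76.2%) lay at lincRNA starts and 521 (23.8%) at antisense starts. They belonged to 1994 genes, of which 1780 had 1 region, 179 had 2 and 35 had 3 or more. The most, 5, lay at starts of the imprinted microRNA host Mirg.

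ATAC-seq, which cuts and tags open DNA with a transposase, was carried out on 3 groups of 1 sample each, named SOX2-ON, SOX2-OFF and CEpiLC, with 50000 cells per sample. All derived from HM1 mouse ES cells (strain 129) and were taken at 72 h of differentiation, after 2 days in 10 ng/ml bFGF with the WNT secretion inhibitor LGK974 at 5 µM, and then with the WNT agonist CHIR99021 added until day 3. SOX2-ON and SOX2-OFF came from 1 clone, Sox2 TetON, labelled Sox2-/-, in which both copies of Sox2 were inactivated and a doxycycline-inducible Sox2 transgene was placed at Hprt, with the transactivator expressed from Rosa26. Doxycycline (1 µg/ml in ES culture) was kept on during differentiation in SOX2-ON and taken away in SOX2-OFF. CEpiLC cells, caudal epiblast-like cells, were labelled wild-type and untreated. Per the paper, the wild-type control was the parent line, HM1 TetON, so the transactivator may be shared by all 3 samples. The comparisons ask how accessibility depends on the level of SOX2, a transcription factor of pluripotent and neural cells. With 1 sample per group there was no replicate check and no test between groups. Between SOX2-ON and SOX2-OFF, SOX2 level and exposure to doxycycline during differentiation cannot be told apart. In the comparisons with CEpiLC, SOX2 level, the engineered clone and doxycycline cannot be told apart.

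A lncRNA gene is transcribed from its own promoter but encodes no protein. Its promoter can share features with coding promoters, such as CpG-rich sequence, or can resemble an enhancer, with few CpG dinucleotides and activity in few cell types. Several lncRNAs are used as marks of a cell state, among them the Platr (pluripotency-associated transcript) genes of ES cells, and others arise from imprinted loci or host microRNAs and small nucleolar RNAs (snoRNAs).

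The sequences below are the central 200 bp of 10 regions, from the plus strand of GRCm38 (mm10), and were chosen after the values were seen. The first 3 had a higher fold enrichment in SOX2-ON than in both other samples. They lie at Gm12510 (chr4:55464234-55464433, intron of Gm12510), Gm15416 (chr7:96816920-96817119, intron of Gm15416 and, on the other strand, of Tenm4) and Platr11 (chr9:118405839-118406038, intron of Platr11). The capitals mark matches on either strand to 6 motifs: SOX (CATTGT or CTTTGT), octamer (ATGCAAAT), TCF/LEF (CTTTGAT), T-box (TCACACCT), CDX (TTTATNG, with N any base) and the site of GATA factors (AGATAA). Gm12510 and Gm15416 each held 1 GATA match, and Platr11 held none of the 6.
Gm12510: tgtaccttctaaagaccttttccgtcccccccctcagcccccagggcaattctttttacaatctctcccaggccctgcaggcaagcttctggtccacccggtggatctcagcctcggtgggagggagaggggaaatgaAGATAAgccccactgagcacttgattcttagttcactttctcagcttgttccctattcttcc
Gm15416: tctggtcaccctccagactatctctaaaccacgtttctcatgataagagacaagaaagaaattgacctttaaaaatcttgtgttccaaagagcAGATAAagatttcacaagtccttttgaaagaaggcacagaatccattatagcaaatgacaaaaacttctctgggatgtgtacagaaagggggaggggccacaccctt
Platr11: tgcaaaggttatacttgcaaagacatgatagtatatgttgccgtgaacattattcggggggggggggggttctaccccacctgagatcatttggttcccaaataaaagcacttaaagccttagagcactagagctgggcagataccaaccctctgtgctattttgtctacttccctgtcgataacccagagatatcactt

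The next pair, at Gm10701 (chr9:24341446-24341645) and Gm34093 (chr15:36390266-36390465), was covered by peaks of SOX2-ON and of no other sample. Neither window overlapped an annotated exon or intron. Gm10701 held 3 SOX matches and Gm34093 held 1.
Gm10701: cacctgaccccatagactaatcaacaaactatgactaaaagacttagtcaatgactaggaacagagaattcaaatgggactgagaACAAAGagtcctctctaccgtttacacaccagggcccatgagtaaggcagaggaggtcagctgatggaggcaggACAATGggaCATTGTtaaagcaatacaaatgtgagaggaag
Gm34093: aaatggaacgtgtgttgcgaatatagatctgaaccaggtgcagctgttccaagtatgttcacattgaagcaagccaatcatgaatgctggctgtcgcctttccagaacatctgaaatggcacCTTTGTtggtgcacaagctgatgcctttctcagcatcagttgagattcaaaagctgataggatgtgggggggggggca

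A further pair, at Gm26735 (chr13:28942320-28942519, outside annotated genes) and 2610206C17Rik (chr7:84754844-84755043, intron of 2610206C17Rik), was covered in SOX2-OFF and CEpiLC but not in SOX2-ON. Gm26735 held none of the 6 motifs, and 2610206C17Rik held 2 SOX matches.
Gm26735: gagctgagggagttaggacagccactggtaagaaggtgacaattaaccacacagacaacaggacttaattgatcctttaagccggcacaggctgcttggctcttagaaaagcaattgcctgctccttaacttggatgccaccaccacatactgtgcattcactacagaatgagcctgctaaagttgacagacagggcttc
2610206C17Rik: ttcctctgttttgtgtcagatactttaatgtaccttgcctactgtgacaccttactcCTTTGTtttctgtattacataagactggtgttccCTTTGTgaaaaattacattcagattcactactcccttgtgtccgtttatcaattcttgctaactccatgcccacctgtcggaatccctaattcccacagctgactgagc

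The last 3 were strong in every sample, and here capitals mark CG dinucleotides. They lie at Gm15287 (chr13:111725475-111725674, exon), Mir17hg (chr14:115041305-115041504, outside annotated genes, 305 bp from region to start) and Kcnq1ot1 (chr7:143295913-143296112, exon of Kcnq1ot1 and intron of Kcnq1). They held 15, 37 and 13 CG dinucleotides, respectively.
Gm15287: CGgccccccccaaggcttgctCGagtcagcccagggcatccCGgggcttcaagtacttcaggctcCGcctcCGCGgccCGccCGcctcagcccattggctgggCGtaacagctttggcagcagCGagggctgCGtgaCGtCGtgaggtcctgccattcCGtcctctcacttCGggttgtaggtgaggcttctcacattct
Mir17hg: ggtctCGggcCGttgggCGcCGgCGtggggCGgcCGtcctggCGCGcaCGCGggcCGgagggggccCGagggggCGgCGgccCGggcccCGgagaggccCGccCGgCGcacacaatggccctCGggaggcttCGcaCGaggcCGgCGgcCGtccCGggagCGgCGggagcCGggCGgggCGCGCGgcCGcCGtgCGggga
Kcnq1ot1: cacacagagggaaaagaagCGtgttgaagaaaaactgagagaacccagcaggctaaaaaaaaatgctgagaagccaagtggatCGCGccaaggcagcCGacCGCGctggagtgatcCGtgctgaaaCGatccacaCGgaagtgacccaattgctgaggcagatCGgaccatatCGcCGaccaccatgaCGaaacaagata

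The lists held 129843 to 131520 peaks per sample, of which 85388 to 95025 lay on the chromosomes used. Read totals were not used, so the depth behind a list is unknown. At Gm15287, where fold enrichment was 4.84 in SOX2-OFF and 4.63 in CEpiLC, −log10 p was 372 and 102, so the same threshold does not mean the same strength in each list. A region with no peak in a list is therefore one not called there, and is not shown to be closed. In cell populations, a region open in fewer cells and one open less in each cell cannot be told apart. The starts of 6 of 6 caudal epiblast and streak markers, 4 of 4 epiblast markers (Sox2 among them) and 4 of 4 naive markers had a peak within 1 kb in every sample. Of 6 starts of genes of blood, liver, heart and glia, peaks lay at 3 in SOX2-ON (Ptprc, Myh6 and Gfap), 1 in SOX2-OFF and 2 in CEpiLC. Peaks do not measure SOX2 itself, so the doxycycline labels were not checked. On chromosomes 6, 8 and 11, which the rule leaves out, CEpiLC stood apart. By the same rule it covered 99 of 241 regions on chromosome 6 (207 in SOX2-ON, 193 in SOX2-OFF), 110 of 291 on chromosome 8 (225 and 215) and 173 of 191 on chromosome 11 (87 and 92).

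Most lncRNA promoter regions were covered in each sample, and 46.2% were covered in all of them. Peaks of SOX2-ON covered 1517 regions (69.2%, 95% Wilson interval 67.3 to 71.1), those of SOX2-OFF 1530 (69.8%, 67.9 to 71.7) and those of CEpiLC 1576 (71.9%, 70.0 to 73.8). The background shares over all merged regions were 57.9%, 59.7% and 63.8%. Intervals here and below cover counting error only, since regions are not replicates. All 3 samples covered 1012 regions (46.2%, 44.1 to 48.3), against 31.2% of all merged regions. With chromosomes 6, 8 and 11 kept, the shares were 42.6% of lncRNA promoter regions and 26.9% of all merged regions. At a −log10 q of 5 or more they were 48.6% and 41.7%, so the gap was smaller there. With all peaks on the chromosomes used, the share was 69.5% (68.9 to 70.1) of 20484 regions within 1 kb of a coding start. It was 23.9% (23.7 to 24.2) of 103044 distal regions, which lay over 5 kb from coding and over 1 kb from lncRNA starts. The lncRNA promoter regions thus stood between both kinds, with intervals that did not meet.

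Regions covered in a single sample made up most of the remainder. There were 298 in CEpiLC alone (13.6%, background 20.0%), 271 in SOX2-ON alone (12.4%, background 16.4%) and 202 in SOX2-OFF alone (9.22%, background 13.4%). SOX2-OFF and CEpiLC shared 174 without SOX2-ON (7.94%, background 8.66%), SOX2-ON and SOX2-OFF shared 142 (6.48%, background 6.47%), and SOX2-ON and CEpiLC shared 92 (4.20%, background 3.88%). All shares of single samples were below the background, and those of pairs were near it.

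**Figure D1:**
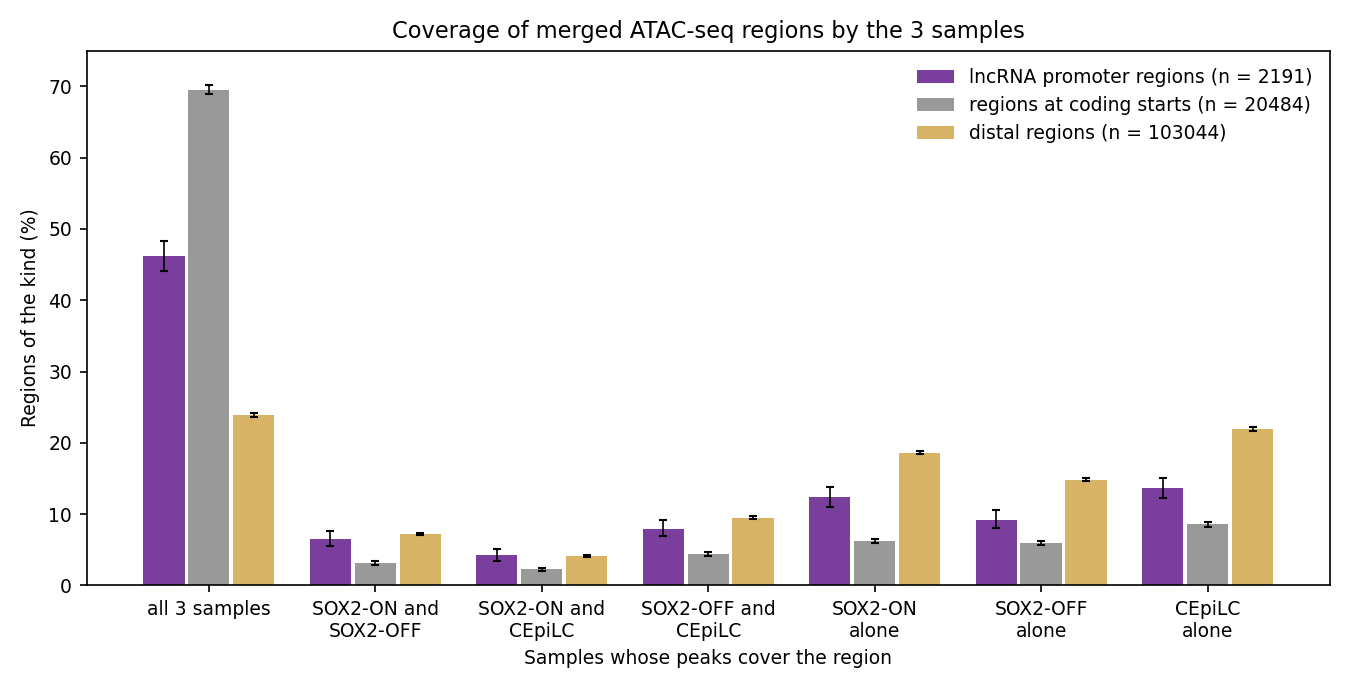
Share of regions (%, y axis from 0) whose peaks came from each combination of samples (x axis), for 2191 lncRNA promoter regions, 20484 regions at coding starts and 103044 distal regions, with 95% Wilson intervals as error bars. The lncRNA promoter regions stand at 46.2% for all 3 samples, between 69.5% at coding starts and 23.9% of distal regions.

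Between SOX2-ON and SOX2-OFF, 363 regions (16.6%) were covered in SOX2-ON and not in SOX2-OFF (background 20.3%), and 376 (17.2%) the other way (background 22.0%). Between SOX2-ON and CEpiLC, 413 (18.8%) were covered in SOX2-ON and not in CEpiLC (background 22.8%), and 472 (21.5%) the other way (background 28.7%). Between SOX2-OFF and CEpiLC, 344 (15.7%) were covered in SOX2-OFF and not in CEpiLC (background 19.8%), and 390 (17.8%) the other way (background 23.9%). The 3 comparisons share samples. In each pair the counts of both directions were near each other, and every share was below its background. These counts depend on the peak threshold: among the 992 regions left at a −log10 q of 5 or more, the counts were 159 and 163 between SOX2-ON and SOX2-OFF, 333 and 55 between SOX2-ON and CEpiLC, and 296 and 14 between SOX2-OFF and CEpiLC. The matching shares over all merged regions were not taken at this threshold. The counts are therefore not shown to be particular to lncRNA promoter regions.

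The missing regions were mostly weak ones, as over all merged regions. To compare strength, the highest −log10 p in a region was ranked against all peaks of the same list, so that a percentile of 100 is the strongest peak. Regions of SOX2-ON that SOX2-OFF lacked had a median percentile of 30.0, against 68.8 for those in both samples, and regions of SOX2-OFF that SOX2-ON lacked had a median of 28.1, against 72.7. Over all merged regions the medians of the missing regions were 29.5 and 26.0. Among the 139 regions in the top 10% of the SOX2-ON list, 1 was missing from SOX2-OFF (0.719%, 0.127 to 3.96) and 0 from CEpiLC (up to 2.69%). The 1 was at 1700021P04Rik, a lincRNA, with a fold enrichment of 4.37 in SOX2-ON and 1.78 in CEpiLC and no peak in SOX2-OFF. Among the 172 in the top 10% of the CEpiLC list, 1 was missing from SOX2-ON, at Gm6471, with 3.61 in SOX2-OFF and 3.05 in CEpiLC. None of the 141 in the top 10% of the SOX2-OFF list was missing from either other list. Over all merged regions, 0.844% of the top 10% of SOX2-ON were missing from SOX2-OFF and 1.66% from CEpiLC, and 0.190% of that of CEpiLC were missing from SOX2-ON.

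Over the regions each list covered, the median percentile was 60.3, 63.7 and 64.7 in SOX2-ON, SOX2-OFF and CEpiLC. Regions at coding starts had medians of 87.6, 88.2 and 88.5, and distal regions 44.5, 43.7 and 43.9. Fold enrichment, the ratio of reads in a peak to the local background of the same library, had medians of 1.93, 1.82 and 1.82 at lncRNA promoter regions. The median width of a region was 899 bp, against 615 bp over all merged regions and 1339 bp at coding starts.

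The position of the start within a region went with coverage. A lncRNA start lay inside 1175 regions (53.6%), and 753 of these (64.1%, 61.3 to 66.8) were covered in all 3 samples, against 259 of 1016 (25.5%, 22.9 to 28.3) with the start outside. Regions in all 3 samples had a median width of 1493.5 bp and those in 1 sample of 318 to 434 bp, and the part of width in this difference was not tested. In CEpiLC, 80.6% of regions with the start inside were covered and 61.9% of the others. Coverage by all 3 samples was 47.7% (45.3 to 50.1) at lincRNA starts and 41.5% (37.3 to 45.7) at antisense starts, and the intervals met.

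CpG content went with coverage too. In 246 regions (11.2%) the central 200 bp had a ratio of observed to expected CpG of at least 0.6, a value typical of CpG islands, against 41.3% of regions at coding starts and 3.67% of distal regions. Of these 246, 191 (77.6%, 72.0 to 82.4) were covered in all 3 samples, against 821 of 1945 (42.2%, 40.0 to 44.4) with a lower ratio. The shares of all merged regions were 79.1% and 26.3%. Coverage of the 246 was 90.7%, 88.2% and 85.4% in SOX2-ON, SOX2-OFF and CEpiLC. Regions covered in SOX2-ON alone held 16 such windows (5.90%), those in SOX2-OFF alone 8 (3.96%) and those in CEpiLC alone 9 (3.02%). Over all merged regions these classes held 2.96%, 2.22% and 1.67%, in the same order.

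Distance from coding genes went less with coverage. All 3 samples covered 52.0% (46.6 to 57.4) of 321 regions 5 to 10 kb from a coding start and 38.6% (34.4 to 43.0) of 484 regions over 100 kb away, with 47.8% at 10 to 50 kb and 46.5% at 50 to 100 kb. A total of 393 regions (17.9%) lay inside a coding gene, and 38.7% (34.0 to 43.6) of them were covered in all 3 samples, against 47.8% (45.5 to 50.1) outside. By chromosome, coverage in CEpiLC ran from 62.7% on chromosome 1 to 85.1% on chromosome 19, and in SOX2-ON from 62.1% to 75.7%. Near the limits of the rule, 40 of 169 regions with the start in the outermost 200 bp of the window (23.7%) were covered in all 3 samples, and 54 of 173 with the start in the 200 bp beyond it (31.2%).

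**Figure D2:**
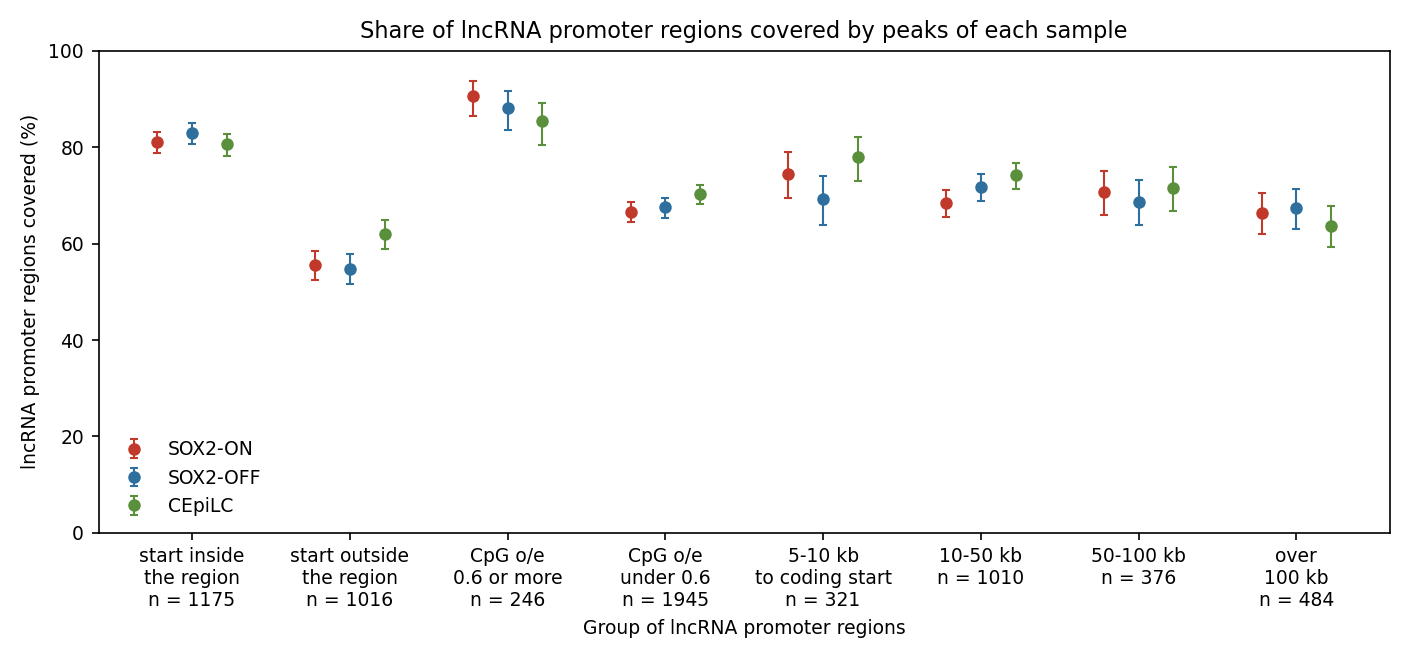
Share of lncRNA promoter regions covered by peaks (%, y axis from 0) in SOX2-ON, SOX2-OFF and CEpiLC, by position of the start, CpG ratio and distance to the nearest coding start (x axis), with 95% Wilson intervals. Points for CpG-rich regions lie between 85.4% and 90.7%, above those for a lower ratio, between 66.5% and 70.2%.

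A group of 103 regions (4.70%) stood in the top 10% of every list, near the 4.98% of all merged regions. Of these, 96 held the start and 66 (64.1%, 54.5 to 72.7) were CpG-rich. The highest −log10 p was at Gm42418, a lincRNA on chromosome 17 (chr17:39846684-39847422) that overlaps ribosomal RNA sequence, which is present in many copies, so its value is uncertain. Its fold enrichment was 11.7, 9.05 and 11.2 in SOX2-ON, SOX2-OFF and CEpiLC. Next was Gm15287, an antisense gene 24.1 kb from the start of Mier3, with 6.30, 4.84 and 4.63, and then the lincRNA 6720427I07Rik, with 5.88, 4.43 and 4.00. In the deposited scale SOX2-ON was highest at each of the 3. The scaled log2 ratios of SOX2-ON over SOX2-OFF, explained below, were 0.00, 0.01 and 0.03, and those over CEpiLC were −0.53, −0.09 and −0.0040. After scaling SOX2-ON was thus not above CEpiLC at any of the 3.

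Regions covered in SOX2-ON alone reached higher strength than those in either other sample alone. The leading 3 were Gm28777 (chr1:53195188-53196268, antisense, inside Pms1), with a fold enrichment of 4.07 and percentile 89.2, Gm10701 (chr9:24341039-24342053, antisense, 40.7 kb from Npsr1), with 3.83 and 88.8, and Gm34093 (chr15:36389661-36391070, lincRNA), with 3.97 and 87.9. Each held the start inside the region. No peak was called at any of them in SOX2-OFF or CEpiLC. The leading 3 in SOX2-OFF alone were Platr2, with a fold enrichment of 2.07 and percentile 71.7, 4930556G22Rik, with 2.03 and 70.5, and Gm35326, with 1.94 and 68.2. In CEpiLC alone they were Gm32885, with 2.12 and 77.8, a region 868 bp from a start of Meg3, with 1.73 and 75.4, and Gm29724, with 2.04 and 74.8. Over each class the median percentile was 30.4 for SOX2-ON alone, 19.5 for SOX2-OFF alone and 26.7 for CEpiLC alone.

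Among regions shared by SOX2-OFF and CEpiLC but not called in SOX2-ON, the strongest were Gm6471 (chr7:142830716-142831870, lincRNA, 64.7 kb from Th), Gm26735 and 2610206C17Rik. Gm26735 (chr13:28941892-28942947, lincRNA) lies 10.8 kb from the start of Sox4, a SOX factor gene, and had fold enrichments of 2.98 in SOX2-OFF and 2.62 in CEpiLC. The antisense gene 2610206C17Rik had 2.87 and 2.25. These 3 stood at percentiles 88.4 to 88.7 of the SOX2-OFF list.

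Among regions shared by SOX2-ON and CEpiLC, the strongest were 1700021P04Rik, described above, Gm32335 (antisense, 14.5 kb from Htr3a), with 4.08 in SOX2-ON and 1.60 in CEpiLC, and Gm28863 (antisense, 10.3 kb from Adm), with 3.62 and 1.73. Among those shared by SOX2-ON and SOX2-OFF they were Gm13572 (lincRNA, inside Baz2b), with 3.82 and 1.82, A330069K06Rik, with 3.85 and 2.26, and Gm28818, with 3.85 and 1.81. All 6 had the higher value in SOX2-ON, but their choice by −log10 p favours this, so it does not describe the classes. At Gm15287, for example, −log10 p was 619 for SOX2-ON, against 372 for SOX2-OFF and 102 for CEpiLC. The values were also not scaled. Over all regions shared with SOX2-OFF, median fold enrichment was 1.64 for SOX2-ON and 1.58 for SOX2-OFF. Over those shared with CEpiLC, it was 1.59 for SOX2-ON and 1.67 for CEpiLC.

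For regions covered in both samples of a pair, the fold enrichments of all such regions were brought to 1 common distribution by quantile normalization, and the log2 ratio was taken. A difference of 1.5-fold (0.58 on the log2 scale) or more is called here. It has no error, since each group had 1 sample.

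Between SOX2-ON and SOX2-OFF, 1154 lncRNA promoter regions were covered in both. Of these, 33 (2.86%, background 2.79%) were at least 1.5-fold higher in SOX2-ON and 21 (1.82%, background 1.54%) in SOX2-OFF. The median log2 ratio was −0.02 (quartiles −0.17 and 0.11), against −0.01 over all 54303 shared regions. Both shares were thus near the background. At coding starts the shares were 0.518% and 0.639%, and at distal regions 3.96% and 2.07%. With median centring in place of quantile normalization, 41 regions (3.55%, background 3.50%) were higher in SOX2-ON and 13 (1.13%, background 1.16%) in SOX2-OFF. For peaks at a −log10 q of 5 or more, 9 of 659 were higher in each direction (1.37%, background 1.72% and 1.21%).

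The largest ratio toward SOX2-ON was at Gm12510, a lincRNA 66.9 kb from the start of Klf4, a transcription factor gene of naive pluripotency. The region (chr4:55463808-55464859) lay 955 bp from a Gm12510 start. Its fold enrichment was 5.03, 1.57 and 1.69 in SOX2-ON, SOX2-OFF and CEpiLC, and its −log10 p was 150.2, 3.9 and 3.6. It stood at percentile 94.5 of the SOX2-ON list, and at 36.4 and 36.8 of the others. Its scaled log2 ratio was 1.47 over SOX2-OFF and 1.32 over CEpiLC. Gm40418 (chr12:50120195-50121132, 528 kb from Prkd1) had 4.65, 1.84 and 1.81, with a log2 ratio over SOX2-OFF of 1.12. Gm47599 (chr10:95460523-95461875) had 3.75, 1.57 and 1.95, with a log2 ratio over SOX2-OFF of 1.09. Over all 33 regions, fold enrichment ran from 2.51 to 5.03 in SOX2-ON (median 3.39) and from 1.46 to 2.27 in SOX2-OFF (median 1.65). The start lay inside 21 of the 33, and 2 were CpG-rich. Of the 1012 regions covered in all 3 samples, most of those compared here, 74.4% held the start and 18.9% were CpG-rich.

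The lowest ratios, toward SOX2-OFF, were at 3 lincRNA genes. AC129309.1 (chr17:87192893-87194599) had fold enrichments of 1.56, 2.89 and 2.31 in SOX2-ON, SOX2-OFF and CEpiLC, with a log2 ratio of SOX2-ON over SOX2-OFF of −1.04. Gm29918 (chr7:25575092-25577034) had 1.98, 3.37 and 2.58 and a log2 ratio of −0.97. AC154349.1 (chr17:91565791-91567994) had 1.92, 3.15 and 2.11 and a log2 ratio of −0.90, and its centre was 69.5% repeat-masked. Over all 21 regions, fold enrichment ran from 1.55 to 2.96 in SOX2-ON (median 1.82) and from 2.26 to 4.28 in SOX2-OFF (median 2.88).

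Between SOX2-ON and CEpiLC, 40 of 1104 regions (3.62%, background 2.35%) were at least 1.5-fold higher in SOX2-ON and 27 (2.45%, background 1.57%) in CEpiLC, with a median log2 ratio of −0.02. Distal regions had shares of 3.22% and 1.98%, and coding starts 0.864% and 0.850%. With median centring the counts were 84 (7.61%, background 9.13%) and 10 (0.906%, background 0.583%). For peaks at a −log10 q of 5 or more they were 6 (1.24% of 485, background 1.02%) and 7 (1.44%, background 1.70%). Each share was thus above the background under quantile normalization of all peaks and below it in 1 of these other settings. Besides Gm12510, the highest ratios were at Gm15416 (chr7:96816519-96817520), antisense inside Tenm4, with 4.79, 2.03 and 1.69 in SOX2-ON, SOX2-OFF and CEpiLC, and at 2810429I04Rik, with 5.34, 4.07 and 1.84. Their log2 ratios over CEpiLC were 1.26 and 1.23. At Gm15416 SOX2-OFF was near CEpiLC, whereas at 2810429I04Rik it was near SOX2-ON. The lowest were Gm11454 (chr2:163122267-163123025), with 1.67, 1.63 and 3.01 and a log2 ratio of −1.09, Gm16559, with 1.79, 2.65 and 2.93 and a log2 ratio of −0.97, and Gm13480, with 1.61, 2.26 and 2.58 and a log2 ratio of −0.85. Of the 40 regions higher in SOX2-ON, 32 held the start and 8 were CpG-rich. Of the 27 higher in CEpiLC, 18 held the start and 0 were CpG-rich. The shares of the 1012 regions covered in all 3 samples were 74.4% and 18.9%, and the counts were not tested against them.

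Between SOX2-OFF and CEpiLC, 4 of 1186 regions (0.337%, background 0.362%) were at least 1.5-fold higher in SOX2-OFF and 4 (0.337%, background 0.284%) in CEpiLC, with a median log2 ratio of −0.00 and quartiles of −0.10 and 0.10. With median centring the counts were 8 (0.675%, background 0.661%) and 3 (0.253%, background 0.148%). The highest were 2810429I04Rik, with a log2 ratio of 1.05, Gm47716, with 2.83 in SOX2-OFF and 1.71 in CEpiLC and a log2 ratio of 0.70, and Gm16233, with 4.28 and 2.50 and a log2 ratio of 0.61. The lowest were Gm11454, with −0.94, Gm20005 (5.02 kb from Hsph1), with 1.51 and 2.53 and −0.75, and Gm32939, with 1.67 and 2.57 and −0.66. Gm11454 was thus high in CEpiLC against both samples of the engineered clone, and 2810429I04Rik was low there.

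**Figure D3:**
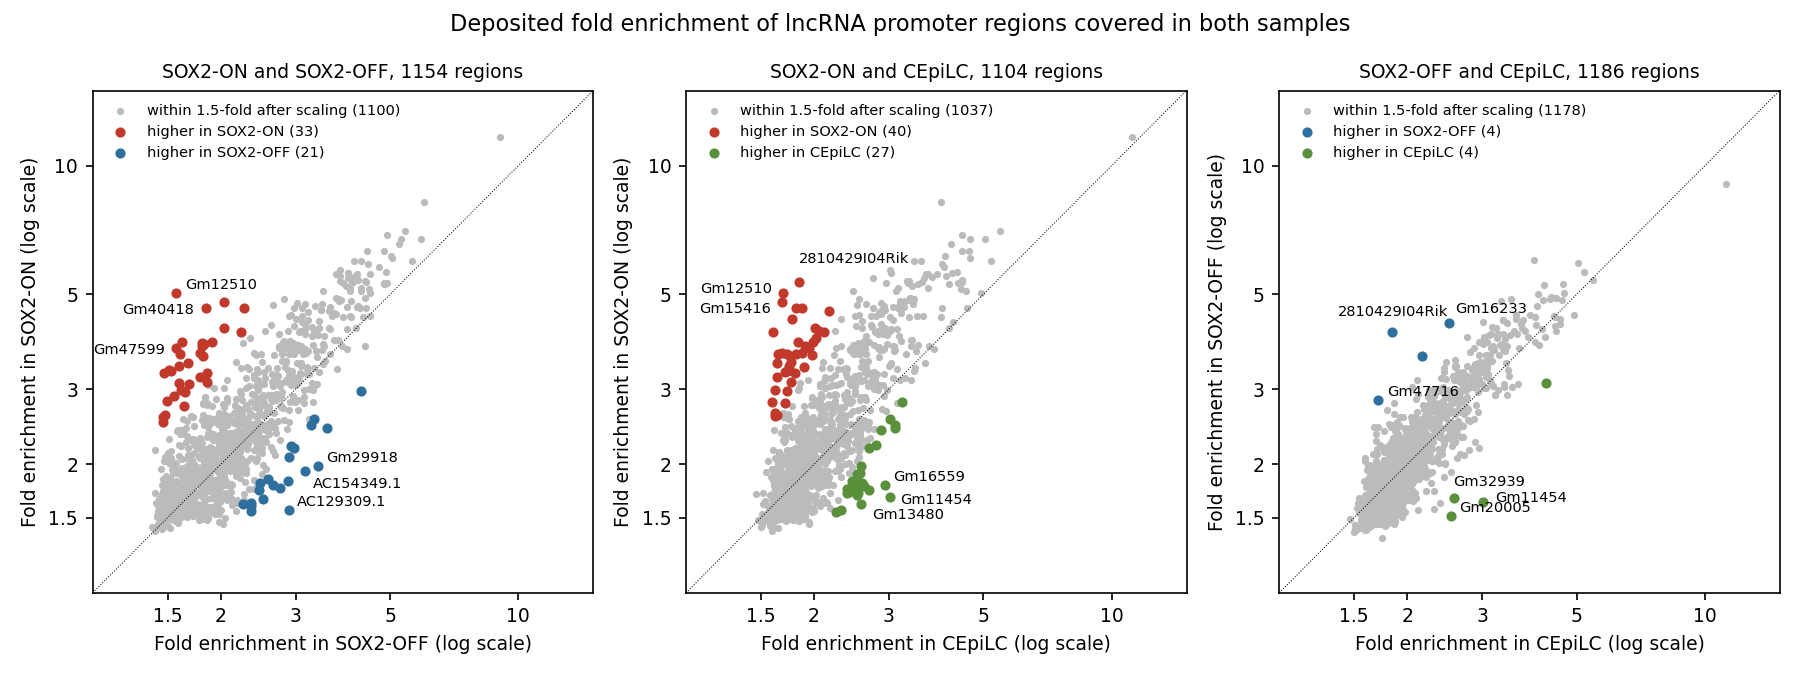
Deposited fold enrichment of lncRNA promoter regions covered in both samples of a pair (log axes, 1 point per region), with equal values on the dotted line. Coloured points passed 1.5-fold after quantile normalization: 33 and 21 of 1154, 40 and 27 of 1104, and 4 and 4 of 1186, and the 3 highest and 3 lowest ratios of each pair are named.

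Short sequence motifs were searched in the central 200 bp of each region on both strands, with the letters given above and 8 further motifs: FOXH1 (AATNCACA), KLF (CCACACCC), ETS (CCGGAAGT), YY1 (AAGATGGC), NFY (CCAATCA), the core promoter element bound by TBP (TATAAA), and the longer consensus sites of NRF1 and CTCF, given by name. CTTTGT shares its first 5 letters with the TCF/LEF motif CTTTGAT, and these exact letters cannot match at the same place. This holds for the letters searched and does not show that SOX and TCF/LEF sites are distinct. The SOX motif was found in 577 regions (26.3%, 24.5 to 28.2), against 25.7% of all merged regions, and the GATA motif in 174 (7.94%, 6.88 to 9.15), against 9.53%. The other shares ran from 0% for NRF1 (up to 0.175%, 0.0756% of all merged regions) to 7.12% for CDX (7.12% of all merged regions). The KLF motif stood at 3.15% (2.50 to 3.97), against 2.28%, and the TCF/LEF motif at 3.42% (2.74 to 4.27), against 3.37%. The share of SOX matches was highest in regions covered in SOX2-ON alone, at 38.01% (32.4 to 43.9), compared with 23.3% (17.97 to 29.6) in SOX2-OFF alone, 21.1% (16.9 to 26.1) in CEpiLC alone and 24.1% (21.6 to 26.8) in all 3 samples. Regions shared by SOX2-ON and SOX2-OFF stood at 31.7% (24.6 to 39.7), an interval that met the highest. Over all merged regions the corresponding shares were 38.6%, 24.7%, 22.7% and 21.3%, close to those of lncRNA promoter regions. Within regions whose CpG ratio was under 0.6 the shares were 38.8%, 23.7%, 21.5% and 24.6%, and with the start inside the region they were 37.4%, 23.0%, 21.9% and 24.0%.

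GATA matches stood at 14.0% (10.4 to 18.7) in regions of SOX2-ON alone, compared with 9.41% (6.10 to 14.2) in SOX2-OFF alone, 6.04% (3.85 to 9.34) in CEpiLC alone and 6.23% (4.90 to 7.89) in all 3 samples. The same shares over all merged regions were 15.2%, 10.2%, 7.61% and 7.23%. Of the 33 regions at least 1.5-fold higher in SOX2-ON than in SOX2-OFF, 16 held a SOX match (48.5%, 32.5 to 64.8) and 8 a GATA match (24.2%, 12.8 to 41.0). Of the 21 higher in SOX2-OFF, 3 held a SOX match (14.3%, 4.98 to 34.6) and 2 a GATA match. Over all merged regions past 1.5-fold, SOX matches stood at 42.8% of those higher in SOX2-ON and 23.3% of those higher in SOX2-OFF, and GATA matches at 20.1% and 12.6%. The higher shares toward SOX2-ON were thus general to merged regions. A match is a run of letters and does not show that a factor was bound.

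**Figure D4:**
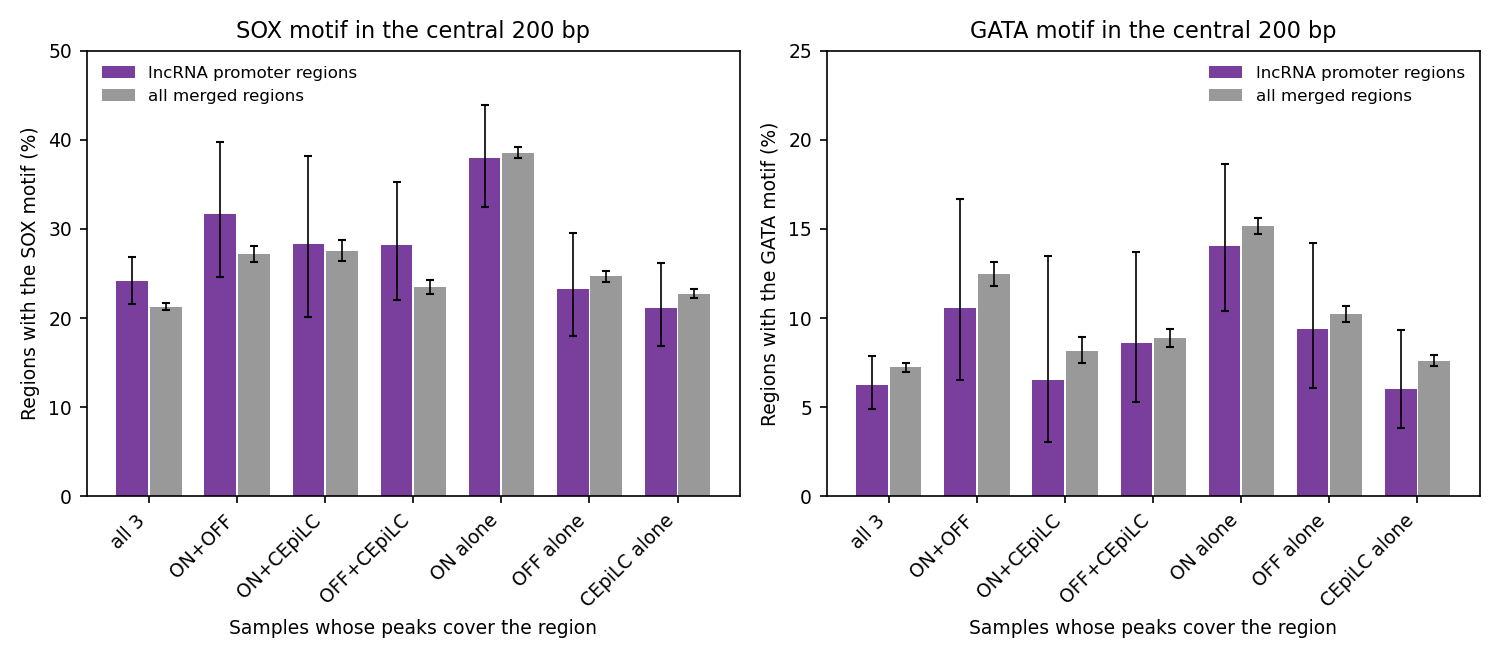
Share of regions (%, y axes from 0) with a SOX or a GATA motif in the central 200 bp, by the samples that covered the region (x axis), for lncRNA promoter regions and all merged regions, with 95% Wilson intervals. In both kinds the SOX share is highest in SOX2-ON alone, at 38.01% and 38.6%.

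Known lncRNAs were described from 7 lists holding 102 annotated genes, of which 83 lay on the chromosomes used. A total of 38 genes had 63 regions. The other genes had another gene type (26), lay on a chromosome left out (19), had every start within 5 kb of a coding start (11) or had no region (8). The 8 were Platr3, Platr15, Platr28, Platr29, Dlx1as, Pantr1, Hotair and Mir133a-1hg. Of the 63 regions, all 3 samples covered 47, SOX2-ON 54, SOX2-OFF 56 and CEpiLC 53. The background shares, here and for the single lists below, were 31.2%, 57.9%, 59.7% and 63.8% of all merged regions, in the same order. Past 1.5-fold, 1 was higher in SOX2-ON than in SOX2-OFF (background 2.79%) and 3 were lower (background 1.54%), too few to set against the background. The median log2 ratio over the regions in both samples was 0.00, against −0.01 over all shared regions.

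Among pluripotency lncRNAs, 15 genes had 17 regions, of which SOX2-ON covered 13, SOX2-OFF 15, CEpiLC 12 and all 3 samples 11. Of 30 annotated Platr genes, 13 had a region. Platr11, 71.4 kb from the start of Eomes, a T-box factor gene of the primitive streak, was higher in SOX2-ON, with fold enrichments of 3.59, 1.81 and 1.75 in SOX2-ON, SOX2-OFF and CEpiLC. Its log2 ratio was 0.81 over SOX2-OFF and 0.83 over CEpiLC. The stronger Platr7 region had 4.47, 2.92 and 2.55, with a log2 ratio over SOX2-OFF of 0.31, below the limit of 1.5-fold. Platr10 and Platr19 were lower in SOX2-ON. The stronger Platr10 region had 2.18, 2.97 and 2.69, with log2 ratios of −0.64 over SOX2-OFF and −0.59 over CEpiLC, and 86.5% of its centre was repeat-masked. Platr19, 152 kb from Mycn, had 2.56, 3.31 and 3.02, with log2 ratios of −0.62 and −0.62.

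The promoter of Lncenc1, a lncRNA of naive ES cells, was covered in every sample, with fold enrichments of 3.18, 2.29 and 2.47 in SOX2-ON, SOX2-OFF and CEpiLC and a log2 ratio over SOX2-OFF of 0.27. Eprn, a lncRNA of early pluripotent cells, was covered in SOX2-ON (1.73) and SOX2-OFF (1.73) and not in CEpiLC. Platr6 was covered in SOX2-ON alone (1.59), and Platr2 (2.07) and Platr5 (1.42) in SOX2-OFF alone. Platr5 stood at percentile 0.113 of its list, next to the weakest peaks. Past 1.5-fold, 1 region of the pluripotency list was higher in SOX2-ON than in SOX2-OFF (background 2.79%) and 2 were lower (background 1.54%).

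Of the neural lncRNAs, 3 genes had 6 regions, and every one of the 6 was covered in all samples. The region at Rmst, a transcript of neural progenitors that binds SOX2, also lay at a start of Gm26700 and had fold enrichments of 2.33, 2.26 and 1.90 in SOX2-ON, SOX2-OFF and CEpiLC, with a log2 ratio over SOX2-OFF of −0.11. Miat, a nuclear neural lncRNA, had 2.71, 2.19 and 2.06. C130071C03Rik, which hosts a microRNA of the miR-9 family near Mef2c, had 4 regions. The strongest, also at a start of Gm26803, had 4.64, 2.98 and 2.75 and a log2 ratio over SOX2-OFF of 0.32, whereas another, 84.6 kb from the Mef2c start, had 2.08, 2.89 and 2.55 and a log2 ratio of −0.66. The second passed 1.5-fold and the first did not. The cardiac mesoderm lncRNA Bvht had 2.17, 1.88 and 1.94. The Hox list had no region among 2 genes of the right type, since Hotair had none and the starts of Hoxd3os1 lay within 5 kb of a coding start.

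At imprinted loci, 5 genes had 12 regions. Kcnq1ot1, the antisense transcript in an intron of Kcnq1 that is expressed from the paternal copy, was strong in every sample, with 4.04, 3.16 and 2.83 in SOX2-ON, SOX2-OFF and CEpiLC. Its percentiles were 93.0, 93.5 and 92.6, and its log2 ratio over SOX2-OFF was 0.04. Airn, antisense to Igf2r, had 2.22, 2.24 and 2.10. Meg3, a maternally expressed lncRNA, had 2.55, 2.18 and 1.94 at its main region (chr12:109540582-109543768). H19, also expressed from the maternal copy, was covered in SOX2-ON (1.94) and SOX2-OFF (1.83) and not in CEpiLC. The 5 regions of Mirg were weak, and the strongest had 1.79, 1.88 and 2.11. Past 1.5-fold, 0 of the 12 differed in any pair. Background shares ran from 0.284% to 2.79% per direction, so 12 regions are too few to set against them.

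Among hosts of microRNAs, 7 genes had 14 regions, of which 12 were covered in all 3 samples, and 0 passed 1.5-fold in any pair. With the same background shares, from 0.284% to 2.79% per direction, 14 regions are too few to set against them. Mir17hg had 3.74, 2.74 and 2.50, Mir155hg had 3.01, 3.22 and 2.76, and Mir124-2hg had 3.07, 3.01 and 2.90. Mirt1 was covered in CEpiLC alone (1.70). Among snoRNA hosts and abundant RNAs, 7 genes had 13 regions, 11 of them in all 3 samples. Malat1, a nuclear speckle RNA, had 3.88, 2.82 and 2.62 at its stronger region, and Snhg6 had 4.11, 3.06 and 2.82. Neat1, the RNA scaffold of paraspeckles, had 3.38, 2.30 and 1.90 at its stronger region. Its log2 ratio was 0.34 over SOX2-OFF and 0.60 over CEpiLC. The latter was the 1 call of this list (background 2.35%), too few to set against the background. Pvt1, downstream of Myc, had 2.49, 2.38 and 2.19 at the region nearest to Myc.

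**Figure D5:**
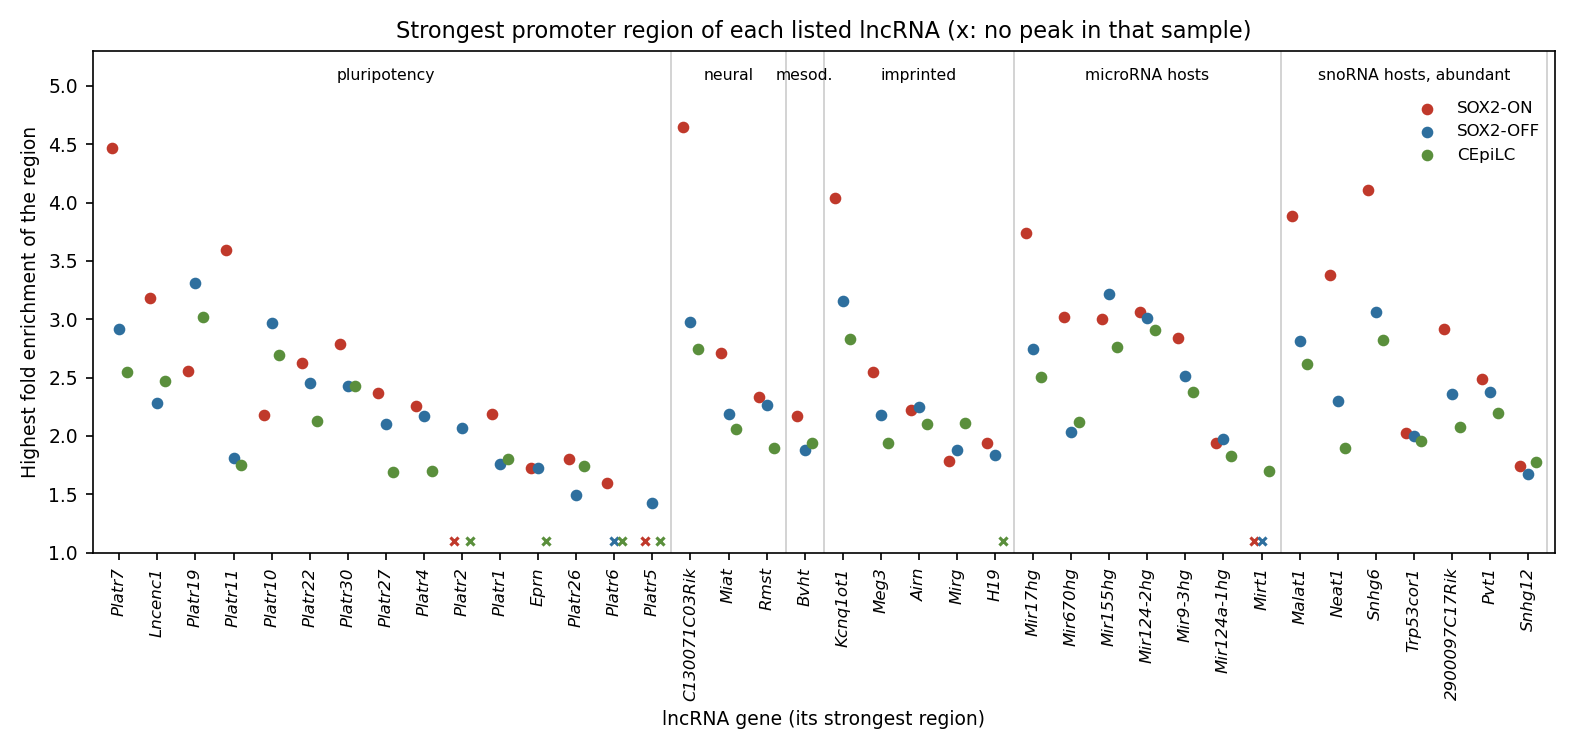
Fold enrichment (y axis) of the region with the highest −log10 p at each of 38 listed lncRNA genes (x axis, by list) in SOX2-ON, SOX2-OFF and CEpiLC, with a cross where no peak was called. Platr11 stands at 3.59 in SOX2-ON against 1.81 and 1.75, whereas Platr10 and Platr19 are lowest in SOX2-ON.

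The nearest coding gene was also compared with 4 lists of developmental regulators, which came from an earlier account of these data and are not independent of it. Genes of naive pluripotency were nearest to 7 regions, of which SOX2-ON covered 4, SOX2-OFF 6, CEpiLC 6 and all 3 samples 4. Besides Gm12510 near Klf4, these included Tbx3os2, 10.7 kb from Tbx3, with 2.32, 1.91 and 1.94 in SOX2-ON, SOX2-OFF and CEpiLC. Those not called in SOX2-ON were Gm41230 near Klf5 (SOX2-OFF alone, 1.49), Gm16064 near Tbx3 (CEpiLC alone, 1.65) and a Tbx3os1 region (1.53 in SOX2-OFF and 1.87 in CEpiLC). Genes of early streak and mesendoderm were nearest to 5 regions. Of these, 1 was called toward SOX2-ON, at Platr11 (background 2.79% over SOX2-OFF and 2.35% over CEpiLC), too few to set against the background. Gm33460, 7.5 kb from Eomes, had 2.54, 2.12 and 2.18 and a log2 ratio over SOX2-OFF of 0.11. Anterior epiblast and neural genes were nearest to 3 regions. Paupar, 7.1 kb from Pax6, had 1.98, 2.07 and 1.97, and Gm49120, 71.2 kb from Otx2, was covered in SOX2-ON alone (1.66). Genes of caudal epiblast and paraxial mesoderm were nearest to 0 regions.

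Counted by gene, 1981 of 5001 lncRNA genes with a start over 5 kb from coding starts (39.6%, 38.3 to 41.0) had a region. The share was 38.9% (37.4 to 40.4) of 3881 lincRNA genes and 42.1% (39.3 to 45.1) of 1120 antisense genes. By sample, SOX2-ON covered a region of 1455 genes (29.1%), SOX2-OFF of 1472 (29.4%) and CEpiLC of 1486 (29.7%).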

How the data were processed

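Reads were, per the study's methods, processed with nf-core/atacseq (Trim Galore, BWA) on mm10, with removal of mitochondrial reads, and broad peaks were called with MACS2 per the labels, 1 list per sample. Whether several libraries were merged in a sample is not given in the sources used here. The deposited columns used are fold enrichment, a ratio of reads to local background within a library, and the −log10 p and −log10 q given with it per peak. The deposited score was not used. Peaks were not scaled between samples by the authors, and their values depend on depth, which is unknown here. All lists ended near a q of 0.1.

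Peaks were merged with bedtools 2.31.1. Starts came from GENCODE M21 and sequence from GRCm38, the build mm10 uses. A region was covered in a sample if any peak of it overlapped, and its strength was the highest value among those peaks. Log2 ratios were taken after quantile normalization over regions covered in both samples. Shares have Wilson 95% intervals. The 10 sequences printed were chosen after the values were seen. The rule and the scaling were tested on simulated data. No difference of exactly 1.5-fold was planted there, so the error of the calls is not known from it. Named regions were those at listed lncRNA genes, the top 3 by −log10 p in each coverage class and the 3 highest and 3 lowest ratios of each pair. The regions and lists were chosen with earlier results of these data known. Alternatives covered the peak threshold, the distances of the rule, the starts, gene types and chromosomes used, the minimum overlap, the strength measure, the scaling, the size of a called difference and the motif window.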

Additional observations from a re-analysis of the deposited data

How the results depend on the processing

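Across 27 results and 12 alternative settings, 133 of 181 alternative values stayed within the spread or within 1.5 times the count, and 48 moved. Changes of direction were not labelled apart from other moves, and some occurred. The median log2 ratio of SOX2-ON over CEpiLC went from −0.018 to 0.040 with median centring. Coverage in CEpiLC went from the highest of the 3 samples (71.9%) to the lowest (54.4%) at a −log10 q of 5 or more. The 4 alternatives with no move were 1 start per gene, all long non-coding types, peaks covering at least 10% of a region and a length-weighted mean fold enrichment. With peaks of −log10 q of at least 2, coverage was 51.5% in all 3 samples (background 37.7%) and 76.1%, 76.2% and 68.8% in SOX2-ON, SOX2-OFF and CEpiLC. Regions in CEpiLC but not SOX2-ON or not SOX2-OFF then numbered 225 and 158. At 5 or more there were 992 regions, with coverage of 48.6% (background 41.7%), 82.5%, 82.9% and 54.4% in the same order. There, 159 were in SOX2-ON but not SOX2-OFF, 163 the other way, 55 in CEpiLC but not SOX2-ON and 14 in CEpiLC but not SOX2-OFF. No background was taken for counts of missing regions under the alternative settings. Past 1.5-fold, 9 and 9 differed between SOX2-ON and SOX2-OFF, 6 and 7 between SOX2-ON and CEpiLC, and 2 and 1 between SOX2-OFF and CEpiLC. With 500 bp either side of a start, coverage was 51.2%, 72.9%, 73.5% and 74.4%. Over 10 kb from coding starts, 2 were higher in CEpiLC than SOX2-OFF. With chromosomes 6, 8 and 11 kept, coverage was 42.6% in all 3 (background 26.9%) and 67.2% in CEpiLC, and 674 and 580 regions of SOX2-ON and SOX2-OFF were missing from CEpiLC. Median centring gave 13 higher in SOX2-OFF than SOX2-ON, 84 in SOX2-ON and 10 in CEpiLC, and 8 in SOX2-OFF over CEpiLC, with median log2 ratios of −0.0069, 0.040 and 0.021. At 2-fold the counts were 6 and 1, 7 and 1, and 1 and 0. Between SOX2-ON and SOX2-OFF the shares were 0.52% and 0.087%, against 0.52% and 0.19% of all merged regions. Between SOX2-ON and CEpiLC they were 0.63% and 0.091%, against 0.36% and 0.069%. Between SOX2-OFF and CEpiLC they were 0.084% and 0%, against 0.021% and 0.0087%. All merged regions thus leaned toward the same sample in each pair, and the counts are too few to set against them. In the 300 bp window at the start, SOX matches stood at 35.9% (33.1% for regions in all 3) and GATA matches at 13.3% (11.5%), with a median GC content of 50%. A longer window holds more places for a match, so these shares cannot be set directly against those of the central 200 bp. The cause of the moves in this section was not tested, except that stricter thresholds leave fewer regions.

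No paired analysis was possible because no group had a second sample. Leaving out a sample was not possible for the same reason, and no difference here has an error between samples. Depth is unknown, and a missing region is one not called in its list.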
